A study of Mus musculus with 12 samples.

Results

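White matter of the spinal cord was compared between lysolecithin lesions and uninjured tissue in middle-aged C57Bl6 mice, 8 months old by the methods of the study (the sample labels state only the age class). Of the 12 libraries sequenced, 6 made up this comparison, 3 from naïve and 3 from injured mice, and all 15866 genes that passed a filter on low counts, of 46078 listed, were described. The remaining 6 libraries, from naïve and injured mice aged 6 weeks, shared the estimate of the spread and entered a test of the difference between the ages. Lysolecithin is a detergent-like lipid that strips myelin, and it was injected into the ventrolateral white matter 72 h, or 3 days, before the tissue was collected. The same region of naïve cords was dissected for comparison by laser capture, in which a microscope's laser cuts a chosen area out of a stained section. Each library held tissue pooled from 5 mice. The naïve mice are not described as having received a needle or a vehicle, so the effects of lysolecithin, of the injection and of the surgery cannot be told apart. The sources do not state that the 3 pools of a group were made from separate sets of mice, and the p-values measure only the spread between these pools.

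Myelin is a cholesterol-rich membrane that oligodendrocytes wrap around axons, and its loss leaves debris that blocks repair until it is cleared. Microglia, the resident macrophages of the cord, and monocytes that enter from blood take the debris up through scavenger receptors, digest it in lysosomes, and export or store the cholesterol that is released. Oligodendrocyte progenitors divide at the lesion and later form new myelin, while astrocytes and fibroblasts change the matrix around them.

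Levels are given as CPM, counts scaled to a common library size, after scaling by trimmed mean of M values (TMM), which corrects for a few very abundant genes, and 47 lists of named genes were counted. The 6 libraries held 10357828 to 12807437 assigned reads, so that 3 counts corresponded to 0.234 to 0.290 CPM. Correlations of log2 CPM were 0.937 to 0.967 between naïve pools, 0.979 to 0.985 between injured pools and 0.792 to 0.825 across the groups. Naïve replicate 2 was the pool least like the others of its group. Reads of mt-Rnr2, the large mitochondrial ribosomal RNA, made up 13.9% to 15.4% of naïve and 7.67% to 12.4% of injured libraries.

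Markers of the cell types of white matter were checked first. The summed level of 12 mature oligodendrocyte markers was 55485 to 63166 CPM in the naïve pools and 8631 to 13396 CPM in the injured pools. Homeostatic astrocyte markers summed to 5355 to 6939 CPM in the naïve pools and 1641 to 2554 CPM in the injured pools, and neuron markers, present in all 6 pools although the region is white matter, to 2942 to 3961 CPM in the naïve pools and 870.1 to 946 CPM in the injured pools. All 3 sums were lower in every injured pool than in any naïve pool. Of the lists with higher sums after injury, 10 pan-myeloid markers summed to 167 to 239 CPM in the naïve pools and 2240.1 to 2926 CPM in the injured pools, and 10 markers of monocytes and recruited macrophages to 0.839 to 4.31 CPM in the naïve pools and 497 to 820.2 CPM in the injured pools. Again the groups did not overlap. The hemoglobin genes and Alas2 of red blood cells had too few counts to be tested, with at most 127 counts for any of them in a pool. Of the markers of T and NK cells, 8 of 10, Cd3e, Cd3d and Cd3g among them, were also below the filter. A lower level of a marker can come from fewer cells of that type or from less of its RNA in each cell, and bulk tissue does not tell these apart.

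**Figure D1:**
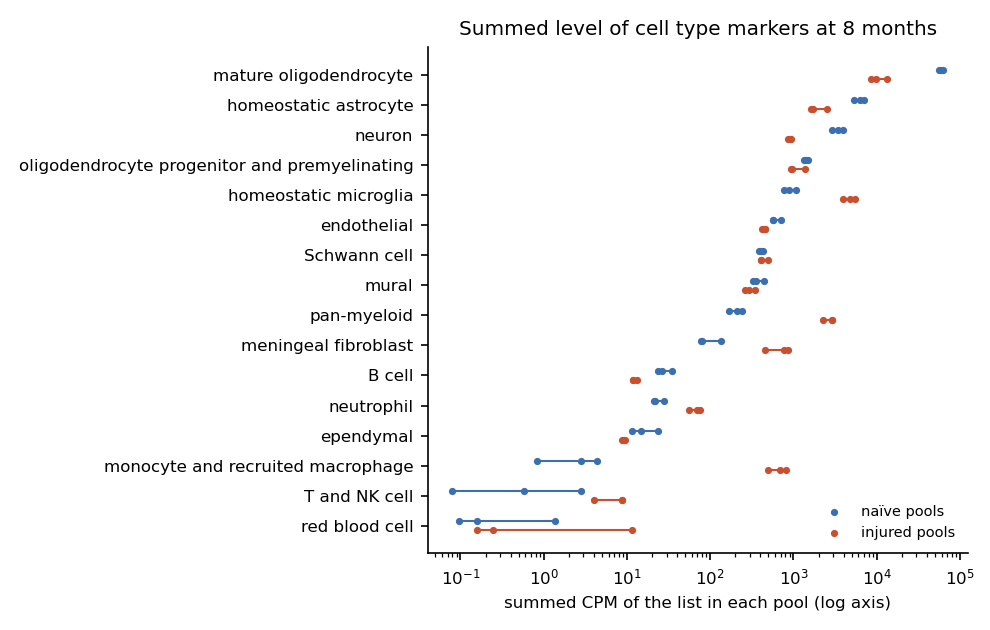
Summed CPM (log axis) of each cell type marker list, named on the vertical axis, in the 8-month pools. Each point is 1 pool, blue for naïve and red for injured, and a line joins the pools of a group. Oligodendrocyte, astrocyte and neuron sums lay lower in all injured pools, and the pan-myeloid, monocyte and fibroblast sums lay higher.

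The injury was accompanied by change across most of the transcriptome. By edgeR's quasi-likelihood test at a Benjamini-Hochberg adjusted p under 0.05, 58.5% of genes tested were called. Of all tested, 29.2% were higher in lesions and 29.3% were lower, and these are the shares that counts within a list should be read against. At least 2-fold, 19.5% were higher and 18.7% lower, and the median log2 fold change over all genes was -0.032. Genes with under 10 counts in every naïve pool passed the filter through other pools, which largely set their direction. They made up 8 of 20 tested mitosis genes, 6 of 10 class II genes, 5 of 16 chemokines, 4 of 14 cytokines, 4 of 18 proteases and inhibitors and 6 of 9 monocyte markers, and at most 3 members of any other list. The gene that gained most in absolute level was Spp1, which encodes osteopontin, a secreted phosphoprotein of activated macrophages. It stood at 124, 178 and 149 CPM in the naïve pools and 13995, 14429 and 11767 CPM in the injured pools. The change was log2 fold change 6.48 ± 0.32, adjusted p = 1.24e-09. Among those next in gain were Grn, Ctsd, Ctsb, Lyz2, Gpnmb and Psap. Of these, Ctsd, Ctsb and Psap encode proteins of lysosomal digestion, Grn progranulin, which acts in lysosomes, Lyz2 a macrophage lysozyme and Gpnmb a transmembrane protein of lipid-laden macrophages. Their log2 fold changes ranged from 2.45 for Psap to 7.59 for Gpnmb (8.37 without naïve replicate 3). After mt-Rnr2, the genes that lost most in level included Mbp, Fth1, Scd2, Gfap, Sparcl1 and Mobp: 2 genes of myelin proteins, the ferritin heavy chain, a fatty acid desaturase and 2 genes that astrocytes express. Their log2 fold changes lay between -3.16 for Sparcl1 and -1.11 for Gfap.

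Among genes at a mean of at least 3 on the log2 CPM scale, the 12 highest fold changes belonged to Thbs1, Apoc2, Adam8, Arg1, Cd36, Msr1, Hpse, Gpnmb, Ccr2, Anpep, Tgm1 and Mki67. Thbs1, thrombospondin 1, is a matrix glycoprotein that binds Cd36. Its level was 1.63, 1.78 and 1.04 CPM in the naïve pools and 692, 851 and 587 CPM in the injured pools. The difference was log2 fold change 8.92 ± 0.35, adjusted p = 1.53e-10. Adam8, a membrane metalloprotease of leukocytes, was at 0.383, 0.839 and 0.559 CPM in the naïve pools and 270.5, 329 and 188 CPM in the injured pools. Both genes were almost silent before injury and were clearly expressed in all 3 lesions. Hpse, heparanase, had 0 counts in naïve replicates 1 and 2 and 2.32 CPM in replicate 3, against 194, 165 and 199 CPM after injury, and the size of its fold change rests on that one naïve pool. The 12 lowest fold changes belonged to Myoc, Ppp1r1b, Hhip, Nkain4, Etnppl, Ptgds, Kcnj14, Ntsr2, Calb2, Grm3, Cldn10 and Slc9b2. Several of these are known from astrocytes, among them Etnppl, an enzyme of phosphoethanolamine breakdown, Ntsr2, a neurotensin receptor, and Grm3, a metabotropic glutamate receptor. Myoc, myocilin, was at 59.2, 71.7 and 67.5 CPM in the naïve pools and 2.98, 0.957 and 1.03 CPM in the injured pools. The fall was log2 fold change -5.31 ± 0.55, adjusted p = 1.27e-06 (-6.04 without injured replicate 1). Ptgds, a prostaglandin D synthase that is abundant in meninges and oligodendrocytes, was uneven among the naïve pools, at 249, 996 and 196 CPM in the naïve pools and 17.4, 18 and 55.4 CPM in the injured pools. Every naïve pool was still above every injured pool, with a log2 fold change of -3.99 (-2.88 without naïve replicate 2 and -4.75 without injured replicate 3). Calb2, calretinin, a calcium-binding protein of some neurons, was likewise highest in naïve replicate 2, at 267 CPM against 121 and 113 in the other naïve pools.

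**Figure D2:**
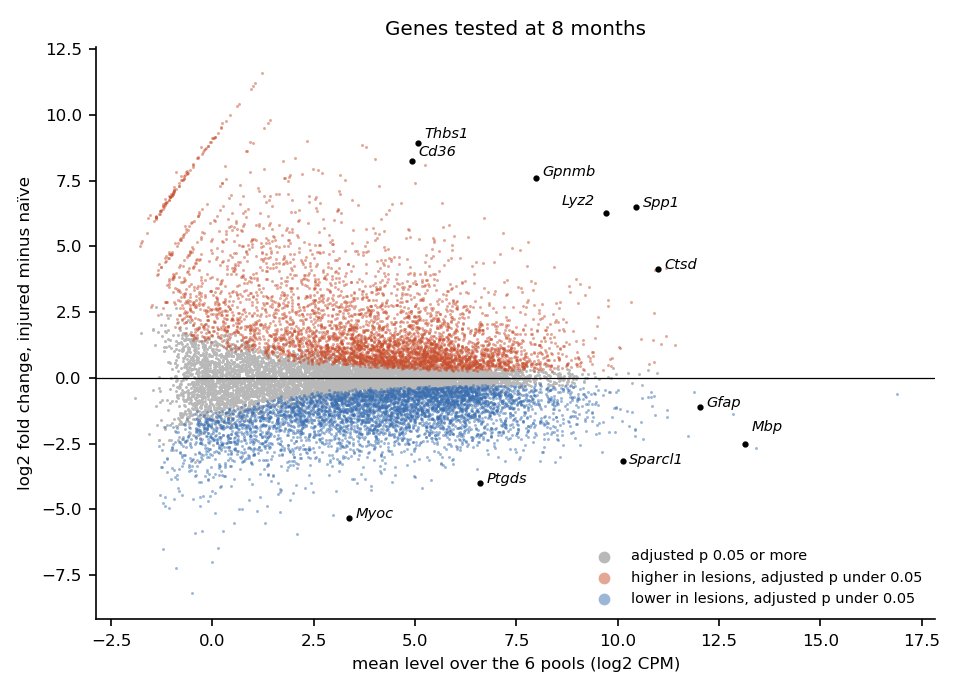
Log2 fold change (injured minus naïve) of each gene tested against its mean level over the 6 pools in log2 CPM. Grey points did not pass the test, red and blue points were higher or lower in lesions at an adjusted p under 0.05, and named genes are black. Spp1 and Gpnmb stand out at high level and high fold, and Mbp is the most abundant of the genes named.

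Genes of mature oligodendrocytes were lower throughout. All 12 of 12 tested markers fell, 11 of them at least 2-fold, with a median log2 fold change of -2.31. Mbp, myelin basic protein, was at 24507, 19368 and 21369 CPM in the naïve pools and 3401, 3025 and 5105 CPM in the injured pools. Its change was log2 fold change -2.50 ± 0.17, adjusted p = 2.55e-08. Mog, a glycoprotein on the outer face of the sheath, was at 586, 547 and 535 CPM in the naïve pools and 94.4, 97.5 and 115 CPM in the injured pools. Neither gene's groups came near to overlapping. The deepest fall of the list was in Aspa, aspartoacylase, which splits N-acetylaspartate (log2 fold change -3.09 ± 0.23, adjusted p = 6.03e-08). The smallest was in Cldn11, the claudin of myelin's tight junctions (log2 fold change -0.59 ± 0.13, adjusted p = 0.00143).

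The enzymes and transfer proteins of myelin lipids followed, with 9 of 12 lower and a median log2 fold change of -1.69. Ugt8a, which makes galactosylceramide, was at 715, 558 and 628 CPM in the naïve pools and 173, 129.5 and 203 CPM in the injured pools (log2 fold change -1.91 ± 0.17, adjusted p = 3.41e-07). Fa2h, which hydroxylates its fatty acids, fell by a similar log2 amount, -2.37, and Gal3st1, which makes sulfatide from it, by -1.79. One member, the sphingomyelinase Smpd3, was higher (log2 fold change 0.55 ± 0.22, adjusted p = 0.0444), a call that did not hold when any single pool except naïve replicate 1 was left out (log2 fold changes 0.48 to 0.60). Of 13 genes of the node of Ranvier and its flanking paranode and juxtaparanode, 12 were lower. They included the axonal sodium channel Scn8a (-1.92), the potassium channels Kcna1 (-1.79) and Kcna2 (-2.03), and the oligodendrocyte connexin Gjb1 (-2.11). The exception was Nrcam, a cell adhesion molecule of the node, at 126, 145 and 114 CPM in the naïve pools and 479.9, 523 and 579 CPM in the injured pools. All 3 injured pools were above all naïve pools (log2 fold change 2.04 ± 0.17, adjusted p = 1.67e-07).

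Transcription factors of the lineage changed less in size. Of 12 tested, 9 fell, with a median log2 fold change of -0.83. Myrf (-1.56), Sox10 (-1.42), Nkx6-2 (-1.62) and Sox8 (-2.46) were among those that fell at least 2-fold. Olig1 and Olig2 fell by 0.67 and 0.57 on the log2 scale. Sox6, which is known to hold progenitors undifferentiated, rose (log2 fold change 0.84 ± 0.31, adjusted p = 0.0334), a call lost without any 1 of the injured pools (log2 fold changes 0.80 to 0.90).

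Markers of progenitors and premyelinating cells split. 3 of 11 rose (27.3%) and 4 fell (36.4%), near the shares over all genes tested, 29.2% and 29.3%. Pdgfra, the PDGF receptor of progenitors, was at 69.3, 102 and 88.3 CPM in the naïve pools and 164, 173 and 158 CPM in the injured pools (log2 fold change 0.94 ± 0.13, adjusted p = 2.8e-05). Cspg4, the NG2 proteoglycan, rose by 1.83 on the log2 scale. Both genes had higher values in each injured pool than in any naïve pool. Those that fell included Enpp6 (log2 fold change -1.84 ± 0.17, adjusted p = 4.13e-07), which marks newly forming oligodendrocytes, and Neu4, a sialidase (-1.16). Pdgfra and Cspg4 are also expressed by fibroblasts and pericytes, and the fibroblast markers rose in the same pools, from a sum of 77.5 to 136 CPM in naïve pools to 458 to 871 CPM in injured pools. The part of those cells in the Pdgfra and Cspg4 values was not tested.

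**Figure D3:**
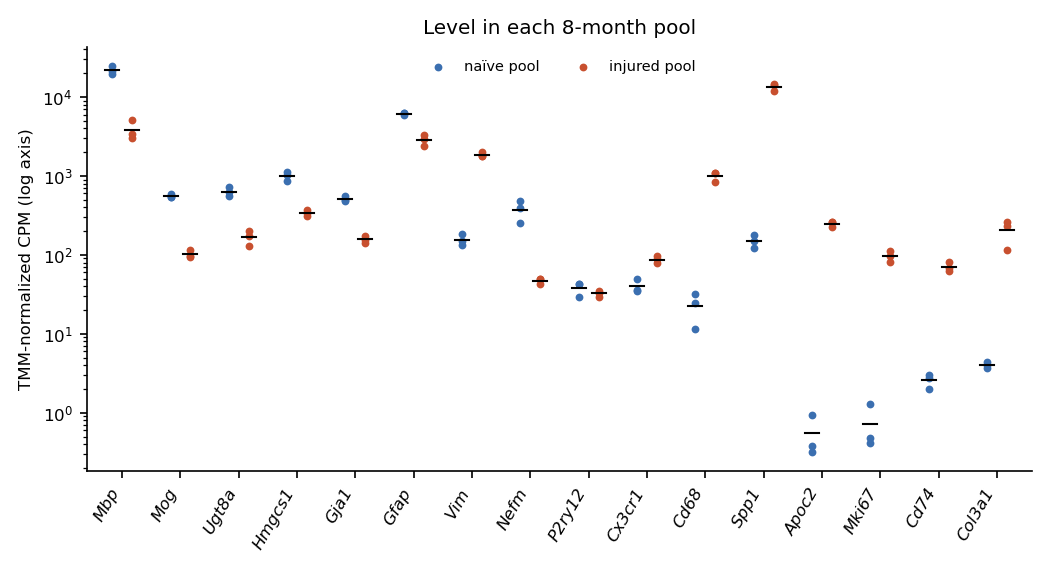
TMM-normalized CPM (log axis) of 16 genes in each 8-month pool, blue for naïve and red for injured, with a bar at the mean of 3 pools. Myelin, cholesterol synthesis, astrocyte and neurofilament genes on the left lie lower in injured pools, except Vim, which lies higher. P2ry12 overlaps, and macrophage, division and collagen genes on the right lie higher.

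Cholesterol metabolism shifted in both of its arms. Of 19 enzymes that make cholesterol from acetyl-CoA, 17 fell and none rose, 12 of them at least 2-fold, with a median log2 fold change of -1.21. Hmgcs1, the most abundant of the list in naïve pools per kilobase of exon, was at 1042, 863 and 1117 CPM in the naïve pools and 335, 312 and 369.5 CPM in the injured pools (log2 fold change -1.57 ± 0.14, adjusted p = 3.58e-07). The falls covered early steps (Idi1 -1.02, Mvd -1.29) and late ones (Lss -1.69, Cyp51 -1.41). Fdft1, squalene synthase, and Ebp did not pass the test, at 0.31 and -0.26, and Fdft1 passed it as higher without naïve replicate 2 (log2 fold change 0.63). The promoter of Hmgcs1 is printed because it was the only one of the 14 list members with a window in the RefSeq table that held TCACNCCAC, letters of a sterol regulatory element searched on both strands. The same letters stood in 1.44% of all genes' windows (300 bases, GRCm38.p6). The stretch runs from 180 bases before to 20 bases after the start site, 5′ to 3′ on the gene's strand, with the motif in capitals, and covers chr13:119690171-119690370 on the plus strand. The motif starts 137 bases before the start site.
Hmgcs1: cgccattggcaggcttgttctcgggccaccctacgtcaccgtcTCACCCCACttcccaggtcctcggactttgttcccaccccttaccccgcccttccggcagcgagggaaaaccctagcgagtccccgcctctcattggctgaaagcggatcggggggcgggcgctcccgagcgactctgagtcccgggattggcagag

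Genes that handle cholesterol already taken up moved the other way. Of 18 tested, 14 rose and none fell, with a median log2 fold change of 2.25. Abca1, which exports cholesterol to apolipoproteins, was at 63.5, 44.6 and 59.4 CPM in the naïve pools and 672, 679 and 509.5 CPM in the injured pools (log2 fold change 3.47 ± 0.18, adjusted p = 1.72e-09). Plin2, the coat protein of lipid droplets, was at 26.1, 40.6 and 26 CPM in the naïve pools and 1037, 1068 and 723 CPM in the injured pools (log2 fold change 4.94 ± 0.25, adjusted p = 1.26e-09). In both, injured replicate 3 was the lowest injured pool, and it still lay far above the highest naïve pool. The esterifying enzyme Soat1 (2.81), the lysosomal lipase Lipa (3.70), the lipoprotein lipase Lpl (3.48) and cholesterol 25-hydroxylase, Ch25h (4.78, 6.16 without naïve replicate 2), also rose. Apoc2, the cofactor of lipoprotein lipase, went from 0.383, 0.943 and 0.320 CPM to 262, 261 and 224 CPM, and the fatty acid carrier Fabp4, with 3, 1 and 1 counts in the naïve pools, rose by 8.35 on the log2 scale. Of the 2 LXR receptors, which sense oxidized cholesterol, Nr1h3 rose (1.86) and Nr1h2 was not called (0.29).

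Genes of macrophages and microglia rose as a body. All 10 pan-myeloid markers rose, with a median log2 fold change of 3.72. Cd68, a lysosomal glycoprotein of phagocytes, was at 11.4, 31.6 and 24.3 CPM in the naïve pools and 1099.7, 1097 and 836 CPM in the injured pools (log2 fold change 5.50 ± 0.31, adjusted p = 3.51e-09). Csf1r, the receptor for the growth factor that keeps macrophages alive, had the smallest change of the list (log2 fold change 1.84 ± 0.18, adjusted p = 8.12e-07). Markers of homeostatic microglia did not share one direction, with 6 of 12 higher (50%) and 3 lower (25%), against 29.2% and 29.3% of all genes tested. P2ry12, the purinergic receptor of resting microglia, was at 42.3, 29.4 and 43.3 CPM in the naïve pools and 35.3, 29.4 and 32.9 CPM in the injured pools, and Tmem119 at 43.5, 192 and 64.5 CPM in the naïve pools and 91.2, 124 and 79.8 CPM in the injured pools. The pools of the 2 groups overlapped for both genes, and neither was called (log2 fold change -0.24 ± 0.18, adjusted p = 0.264 for P2ry12, and log2 fold change -0.021 ± 0.38, adjusted p = 0.966 for Tmem119). Both values rested on naïve replicate 2: without it P2ry12 passed the test as lower (log2 fold change -0.39, adjusted p = 0.043) and Tmem119 as higher (0.87, adjusted p = 0.0016). Siglech (-1.51), Slc2a5 (-1.41) and Sall1 (-0.83) fell. Fcrls (3.72) and Olfml3 (2.51) rose, and Cx3cr1, the fractalkine receptor, rose less (log2 fold change 1.12 ± 0.16, adjusted p = 2.66e-05).

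Markers of monocytes and recruited macrophages were near the detection limit in naïve white matter. Of 10 listed, 9 passed the filter, 6 of them with under 10 counts in every naïve pool, so that their direction was largely set by it. Ccr2, the receptor for Ccl2 on inflammatory monocytes, was at 1.05, 0.105 and 0.879 CPM in the naïve pools and 122, 157 and 113 CPM in the injured pools (log2 fold change 7.51 ± 0.38, adjusted p = 6.88e-09). Arg1, arginase 1, rose by 8.34 on the log2 scale. F10 and Plac8 had 0 counts in the 3 naïve pools together against 924 and 399 in the injured pools, which puts them at least 276-fold and at least 119-fold higher against a floor of 3 counts over the group. Chil3, with 1 naïve count and 1321 counts after injury, had a ratio of 1186 (95% counting interval 212 to 46867). Intervals and floors of this kind cover counting error only. Most neutrophil and lymphocyte genes were too low to test. 6 of 10 neutrophil markers were below the filter, and 3 of 4 tested rose. S100a8, a calcium-binding protein of neutrophils and monocytes, had 0 counts in the naïve pools and 48 in the injured pools, at least 14.4-fold higher, and Cxcr2, a chemokine receptor, had 6 and 42 counts (log2 fold change 2.57 ± 0.81, adjusted p = 0.0143), a call lost without naïve replicate 3 or injured replicate 3 (log2 fold changes 2.17 to 2.32). Csf3r, which microglia also express, went from 12 ± 0.617 to 58 ± 10.1 CPM (SD, n = 3), and Mmp9 fell (-1.27). Cd4, which some myeloid cells can also express, had 0 naïve and 79 injured counts. Lck, a kinase of T cell receptor signalling, had 4 and 37 (log2 fold change 2.92 ± 0.81, adjusted p = 0.00624, 4.25 without naïve replicate 2 and 2.29 without naïve replicate 3).

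Genes linked to disease-associated and lipid-handling microglia rose in 15 of 16 cases, with a median log2 fold change of 3.62. Markers of monocytes and recruited macrophages rose in the same pools, and the part of those cells in these values was not tested. Gpnmb was at 21.9, 3.67 and 40.0 CPM in the naïve pools and 4921, 4311 and 3529 CPM in the injured pools (log2 fold change 7.59 ± 0.59, adjusted p = 8.19e-08). The naïve pools differed widely among themselves, yet each was far below the injured pools (log2 fold change 8.37 without naïve replicate 3). Lgals3, galectin 3 (6.06), Trem2, a lipid-sensing receptor (3.47), Itgax (3.77, 4.73 without naïve replicate 3) and Cst7 (3.90, 4.94 without naïve replicate 3) rose with it. Csf1, the macrophage growth factor, was at 69.2, 79.5 and 75.1 CPM in the naïve pools and 79.3, 79 and 69.5 CPM in the injured pools and was not called (log2 fold change 0.026 ± 0.13, adjusted p = 0.878). Of scavenger and engulfment receptors, 13 of 15 rose, led by Cd36 (8.23) and Msr1 (8.10). Stab1 (5.17), Clec7a (4.85), Cd14 (3.72) and Mrc1 (3.45) followed. Receptors that bind phosphatidylserine through bridging proteins had smaller changes, with Mertk at 2.19, Axl at 1.98 and their ligand Gas6 at 1.0. Lysosomal genes rose in 21 of 25 cases, with a median of 2.86. Among the larger changes was that of Atp6v0d2, a proton pump subunit, which had 33, 0 and 5 counts in the naïve pools (5.54, 7.88 without naïve replicate 1), and the smallest of those called was in Lamp1 (0.54).

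**Figure D4:**
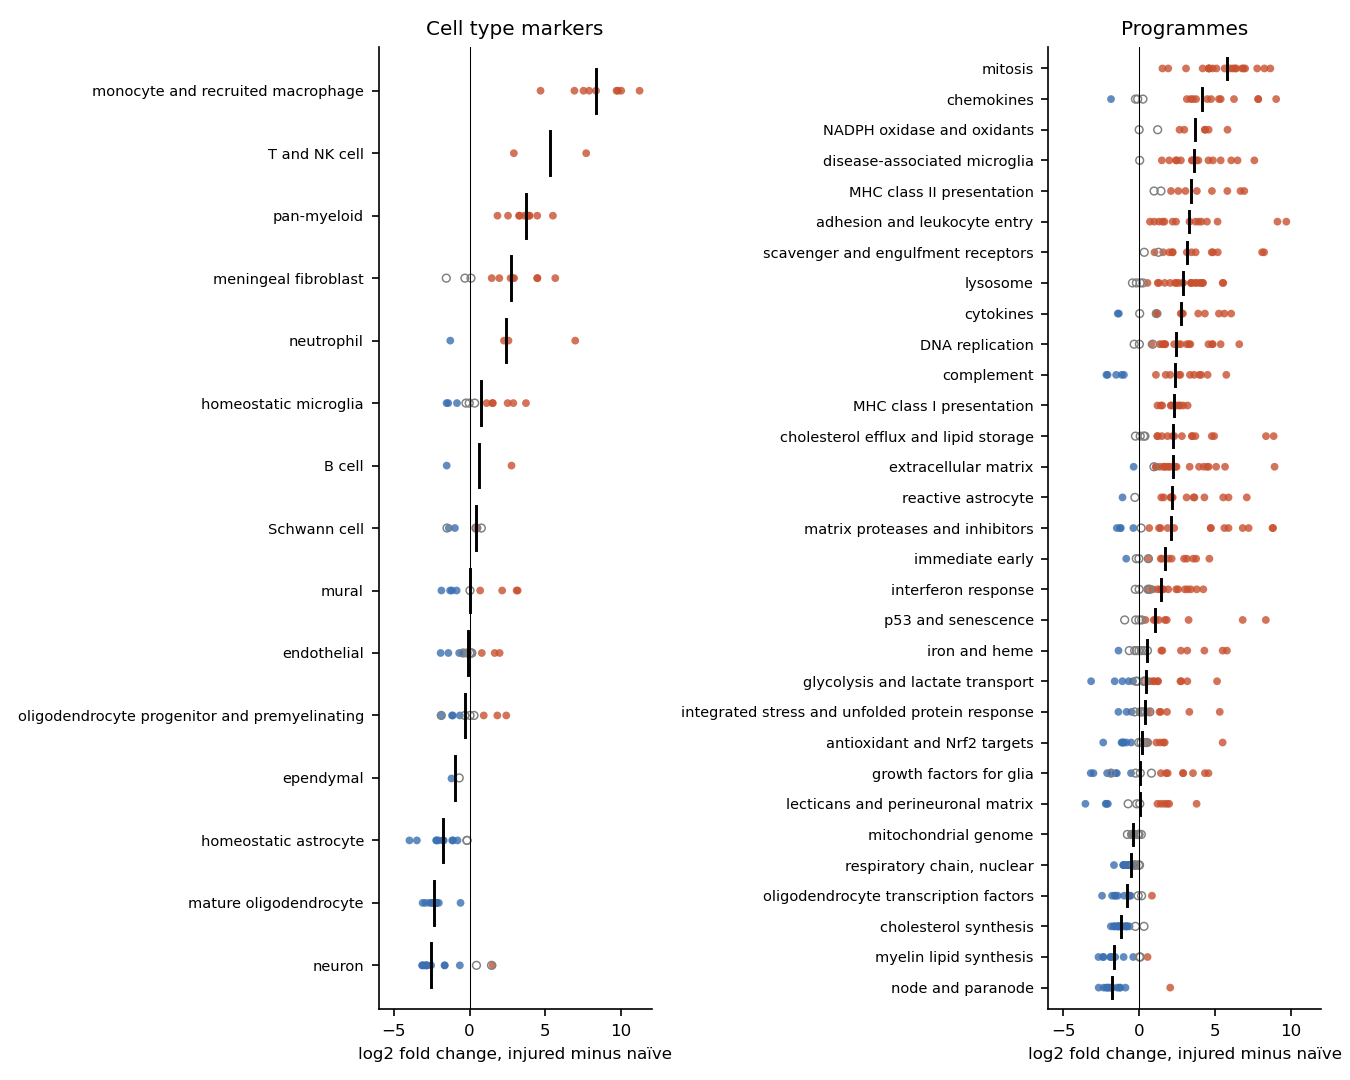
Log2 fold change (injured minus naïve, horizontal axis) of each tested gene in every list, cell type markers on the left and programmes on the right, ordered by list median (black bars). Red and blue points passed the test as higher or lower, and open points did not. Monocyte genes lie highest and neuron genes lowest in the left panel, and mitosis genes highest and nodal genes lowest in the right panel.

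Chemokine genes rose in 12 of the 16 cases that could be tested, of 24 listed. Ccl2, which draws Ccr2-bearing monocytes, was at 2.97, 2.83 and 1.04 CPM in the naïve pools and 179, 164 and 165 CPM in the injured pools (log2 fold change 6.24 ± 0.37, adjusted p = 5.88e-09). Ccl7 (9.02), Ccl6 (5.37), Ccl9 (5.25) and Ccl3 (4.48, 5.11 without naïve replicate 2) were also higher. Cx3cl1, fractalkine, a chemokine that neurons carry on their surface, was the one that fell (log2 fold change -1.86 ± 0.20, adjusted p = 1.84e-06). Cxcl12, which is made by vessels and astrocytes, was not called (-0.25). Of 14 cytokines tested, 10 rose and 2 fell. Tgfb1 rose by 4.33 (4.93 without naïve replicate 3), the interleukin 1 antagonist Il1rn by 3.89 (5.55 without naïve replicate 2) and oncostatin M, Osm, by 5.61 on the log2 scale. Il33, an alarmin that glia release, was already abundant and went from 267 ± 45.3 to 621 ± 54.3 CPM. Il18 (-1.35) and Il4 (-1.42) fell. Tnf had 1 naïve count and 57 injured counts, a ratio of 51.2 (95% counting interval 8.82 to 2056).

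Complement genes moved in both directions, with 11 of 16 higher (68.75%) and 5 lower (31.25%), against 29.2% and 29.3% of all genes tested. The C1q chains rose (C1qa 2.71, C1qb 3.61, C1qc 3.34), as did the anaphylatoxin receptors C3ar1 (5.74) and C5ar1 (3.95, 5.75 without naïve replicate 2). C3, the central component, was at 285, 322 and 288 CPM in the naïve pools and 88, 52.9 and 69.5 CPM in the injured pools. All injured pools were below all naïve pools (log2 fold change -2.09 ± 0.19, adjusted p = 4.53e-07). C4b fell as well (log2 fold change -1.16 ± 0.19, adjusted p = 9.39e-05), together with the regulators Cd55 (-2.17), Cd59a (-1.52) and Clu (-1.02). Astrocytes are known to express C4b and Clu, and the part of the lower astrocyte markers in these values was not tested. The subunits of the phagocyte NADPH oxidase, which makes superoxide, rose in 6 of 8 cases. Cybb, its catalytic subunit, was at 6.71, 9.01 and 7.11 CPM in the naïve pools and 497, 449 and 339 CPM in the injured pools (log2 fold change 5.82 ± 0.23, adjusted p = 1.47e-10), and Cyba, Ncf1, Ncf4 and Rac2 rose by 2.65 to 4.57 on the log2 scale (Ncf1 by 3.25 without naïve replicate 2).

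Antigen presentation genes rose for both classes. All 11 class I genes rose, with a median log2 fold change of 2.29. B2m, the light chain of class I molecules, was at 83.1, 82.1 and 73.6 CPM in the naïve pools and 732, 558 and 481 CPM in the injured pools (log2 fold change 2.89 ± 0.17, adjusted p = 4.27e-09). Class I heavy chains are near-identical paralogs, so the split of reads between H2-K1 (2.69) and H2-D1 (3.19) is uncertain. For class II, 8 of 10 rose, and 6 of the 10 had under 10 counts in every naïve pool, so that the filter largely set their direction. The invariant chain Cd74 was at 2.97, 2.73 and 2.0 CPM in the naïve pools and 68.4, 81.5 and 61.7 CPM in the injured pools (log2 fold change 4.79 ± 0.26, adjusted p = 2.69e-09), and H2-Aa rose by 6.92 (7.64 without naïve replicate 2 and 6.25 without naïve replicate 3) on the log2 scale. The 2 that were not called passed the test once 1 pool was left out, H2-DMa (0.98, and 1.82 without naïve replicate 2) and Cd80 (1.43, and 2.08 without naïve replicate 3).

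Interferon response genes rose in 16 of 21 cases, with a median log2 fold change of 1.46. Bst2, tetherin, was at 1.05, 1.15 and 0.959 CPM in the naïve pools and 25.3, 20.5 and 13.4 CPM in the injured pools (log2 fold change 4.22 ± 0.31, adjusted p = 5e-08), and Oas1a, an RNA sensor, at 1.53, 1.15 and 1.04 CPM in the naïve pools and 23.4, 17.6 and 10.4 CPM in the injured pools (log2 fold change 3.78 ± 0.35, adjusted p = 3.87e-07). Injured replicate 3 was lowest and replicate 1 highest among the lesions for both. Irf7 (2.56, 3.33 without naïve replicate 1 and 1.91 without injured replicate 1) and Zbp1 (3.40) also rose. Ifit1, Ifit2, Ifit3, Rsad2 and Cmpk2 did not pass the test, with log2 fold changes from -0.26 for Cmpk2 to 0.70 for Rsad2. Naïve replicate 1 held more of these 5 transcripts than the other naïve pools, with Rsad2 at 90.5, 22.2 and 11.8 CPM in the naïve pools and 88.9, 71.9 and 41.2 CPM in the injured pools. Without that pool, Ifit1 (1.61), Ifit2 (1.19), Ifit3 (1.0) and Rsad2 (2.0) passed the test as higher. The letters GAAANNGAAA, of an interferon-stimulated response element, stood on either strand in the windows of 9 of the 15 members in the table, against 3.99% of all genes. The stretches of Bst2 and Oas1a are printed as those with the largest changes among called members that held it. They cover chr8:71537453-71537652 on the minus strand and chr5:120907506-120907705 on the minus strand. In each, a pair of overlapping matches is in capitals, the first starting 130 and 20 bases before the start site.
Bst2: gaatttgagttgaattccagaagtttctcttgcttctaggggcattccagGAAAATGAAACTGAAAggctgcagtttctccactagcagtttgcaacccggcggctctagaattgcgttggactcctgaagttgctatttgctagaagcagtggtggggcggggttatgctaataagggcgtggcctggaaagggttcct
Oas1a: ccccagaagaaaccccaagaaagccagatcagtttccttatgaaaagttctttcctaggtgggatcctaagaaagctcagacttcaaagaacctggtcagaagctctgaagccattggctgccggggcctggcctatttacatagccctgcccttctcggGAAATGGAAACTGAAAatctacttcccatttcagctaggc

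Cell division genes were higher in lesions. Of 20 mitosis genes 20 rose, 8 of which had under 10 counts in every naïve pool, so that the filter largely set their direction. Mki67, which marks cycling cells, was at 0.479, 0.419 and 1.28 CPM in the naïve pools and 97.4, 81.8 and 113 CPM in the injured pools (log2 fold change 6.98 ± 0.36, adjusted p = 1.66e-09, 7.72 without naïve replicate 3). Top2a (6.77), Cdk1 (6.87) and Aurkb (6.31, 7.15 without naïve replicate 3) changed by similar amounts. The 3 naïve libraries together held 25 reads of Mki67. Of 20 replication genes, 17 rose, among them the helicase subunit Mcm5 (4.81, 5.53 without naïve replicate 2 and 3.81 without injured replicate 3), the licensing factor Cdt1 (4.56, 5.28 without naïve replicate 3) and the ribonucleotide reductase subunit Rrm2 (6.59). Which cells were dividing cannot be told from bulk tissue. Ttk, a spindle checkpoint kinase, had 1 count in the naïve pools together and 598 in the injured pools, a ratio of 537 (95% counting interval 96 to 21235), and Ccnb2, cyclin B2, rose by 8.25 on the log2 scale. Their promoters are printed because, among members with the letters TTTGAA of a cell cycle homology region on either strand, their changes were largest. The letters stood in the windows of 11 of 16 members in the table and of 20.2% of all genes. The stretches cover chr9:83834509-83834708 on the plus strand and chr9:70421535-70421734 on the minus strand, with the letters in capitals. In the Ttk stretch they read on the opposite strand.
Ttk: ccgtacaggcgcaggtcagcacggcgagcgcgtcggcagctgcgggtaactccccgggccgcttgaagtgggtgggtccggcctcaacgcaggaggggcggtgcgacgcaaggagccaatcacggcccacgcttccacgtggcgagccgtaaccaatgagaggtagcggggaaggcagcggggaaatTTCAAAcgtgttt
Ccnb2: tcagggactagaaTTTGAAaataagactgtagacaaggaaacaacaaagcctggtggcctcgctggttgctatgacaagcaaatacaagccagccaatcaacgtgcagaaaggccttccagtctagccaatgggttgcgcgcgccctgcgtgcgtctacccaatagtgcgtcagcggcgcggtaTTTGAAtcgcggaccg

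Genes of the p53 response and of senescence were mixed beside this. 9 of 13 rose, among them Trp53 itself (1.69) and Eda2r (3.25, 4.41 without naïve replicate 1). Cdkn1a, p21, was at 28, 30.0 and 23.5 CPM in the naïve pools and 32.5, 31.8 and 26.6 CPM in the injured pools and was not called (log2 fold change 0.16 ± 0.17, adjusted p = 0.429), and Cdkn2b was not called either (-0.96). Cdkn2a was below the filter.

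Astrocyte genes fell and rose by class. Of 12 homeostatic genes, 10 fell, with a median log2 fold change of -1.73. They included the glutamate transporters Slc1a2 (-2.05) and Slc1a3 (-2.17), the connexins Gja1 (-1.70) and Gjb6 (-2.20), and the water channel Aqp4 (-1.14). Aldh1l1, a broad astrocyte marker, was at 37.9, 44.4 and 40.0 CPM in the naïve pools and 31.1, 39.8 and 38.1 CPM in the injured pools and was not called (log2 fold change -0.17 ± 0.15, adjusted p = 0.359). Of 16 genes linked to reactive astrocytes, 14 rose, with a median of 2.17. Vim, vimentin, was at 134, 183 and 152 CPM in the naïve pools and 1805, 2012 and 1787 CPM in the injured pools (log2 fold change 3.58 ± 0.17, adjusted p = 6.45e-10). Gfap, the astrocyte intermediate filament and itself a member of the list, went the other way, at 6350.0, 6249.5 and 5874 CPM in the naïve pools and 2409, 2917 and 3255 CPM in the injured pools (log2 fold change -1.11 ± 0.14, adjusted p = 8.43e-06). Both differences separated all injured from all naïve pools. Timp1 (5.88), Lcn2 (5.53, 6.70 without naïve replicate 3), Emp1 (4.29) and Tgm1, a transglutaminase (7.09, 8.34 without naïve replicate 3), rose strongly. Several of these, Vim, Timp1, Lcn2 and Cd44 among them, are also expressed by macrophages or fibroblasts, whose markers rose in the same pools, and the part of those cells was not tested.

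Genes of vessels did not move as a body. Of 12 endothelial markers, 3 rose (25%) and 4 fell (33.3%), near the shares over all genes tested, 29.2% and 29.3%. The junction genes Cdh5 (1.98) and Pecam1 (1.66) and the VEGF receptor Kdr (0.81) rose, and the transporters of the blood-brain barrier Slco1a4 (-1.91) and Slco1c1 (-1.40) fell. Cldn5, the claudin of the barrier, was at 7.0, 7.23 and 7.35 CPM in the naïve pools and 7.79, 7.74 and 7.76 CPM in the injured pools and was not called (log2 fold change 0.11 ± 0.22, adjusted p = 0.688). Of 9 mural markers, 4 rose (44.4%) and 4 fell (44.4%), and neither contractile nor pericyte genes all shared one direction. The contractile genes Acta2 (3.10) and Tagln (3.17) rose, whereas Myh11 was not called (0.030). Among pericyte genes, Vtn (-1.85), Kcnj8 (-1.28, adjusted p = 0.0457), Rgs5 (-1.16) and Abcc9 (-0.85) fell, and Pdgfrb rose (0.70). All 15 genes of adhesion and leukocyte entry rose, Icam1 by 3.31 and Vcam1 by 1.30 on the log2 scale. That list does not cover vessels alone, and it also holds Itgam and Itgb2, which were counted above as pan-myeloid markers. The part of myeloid cells in these rises was not tested. Selp and Sele, the P- and E-selectins of activated endothelium, had 0 counts in all naïve pools against 317 and 212 in the injured pools, at least 94.8-fold and at least 63.4-fold higher.

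Matrix genes rose in 18 of 20 cases, with a median log2 fold change of 2.21. Col3a1 was at 3.74, 4.40 and 4.0 CPM in the naïve pools and 234, 263 and 114 CPM in the injured pools (log2 fold change 5.65 ± 0.40, adjusted p = 2.72e-08), with injured replicate 3 below the other injured pools. Fn1, fibronectin, rose by 4.25, Tnc, tenascin C, by 4.57 and the crosslinking oxidase Lox by 5.07 (5.91 without naïve replicate 2) on the log2 scale. Sparc was lower by a small amount (log2 fold change -0.37 ± 0.12, adjusted p = 0.0186), a call lost without naïve replicate 2, injured replicate 1 or injured replicate 3 (log2 fold changes -0.33 to -0.24). Markers listed for meningeal fibroblasts rose in 8 of 11 cases, among them Col1a1, Col1a2 and Col3a1, which the matrix list also holds. Ogn (-0.31) and Slc13a4 (-1.53) were not called, and Slc22a6 was below the filter. Fmod, fibromodulin, was at 6.23, 7.97 and 6.47 CPM in the naïve pools and 8.62, 5.26 and 8.19 CPM in the injured pools and was not called (log2 fold change 0.10 ± 0.25, adjusted p = 0.761). Of 18 proteases and inhibitors, 13 rose and 4 fell. Mmp12, macrophage elastase, was at 6.61, 1.78 and 4.79 CPM in the naïve pools and 298, 217 and 137 CPM in the injured pools (log2 fold change 5.61 ± 0.37, adjusted p = 1.69e-08), and Mmp13 was at least 52.4-fold higher. Adamts4 (-1.48) and Timp4 (-1.22) fell. The lectican proteoglycans and their partners split, with Vcan (1.20), Ncan (1.42) and the hyaluronan synthase Has2 (3.78, 5.61 without naïve replicate 1) higher, and Bcan (-3.55), Acan (-2.07) and the link proteins Hapln2 (-2.17) and Hapln4 (-2.21) lower.

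Neuronal transcripts fell, with 10 of 13 lower and a median log2 fold change of -2.53. The neurofilament gene Nefm was at 255, 478 and 394 CPM in the naïve pools and 49.8, 49 and 43.2 CPM in the injured pools (log2 fold change -2.99 ± 0.29, adjusted p = 6.53e-07). Chat, which makes acetylcholine in motor neurons, was at 41.6, 64.8 and 56.3 CPM in the naïve pools and 6.38, 8.46 and 3.88 CPM in the injured pools (log2 fold change -3.11 ± 0.28, adjusted p = 3.26e-07), and Slc5a7, the choline transporter, fell by a similar amount (-3.12). Slc17a6, a vesicular glutamate transporter, was the one called higher, at 6.23, 5.45 and 7.59 CPM in the naïve pools and 25, 14.7 and 15.9 CPM in the injured pools (log2 fold change 1.52 ± 0.45, adjusted p = 0.00918). Gad2 narrowly missed the threshold (log2 fold change 1.45 ± 0.60, adjusted p = 0.05003), and Gad1 was not called (0.46). Under 7 of the alternatives, 2 neuron markers were called higher. Cell bodies of motor neurons lie in the grey matter beside the dissected tract. Whether the share of grey matter in the dissected area differed between the groups was not tested.

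Growth factors that act on glia moved in both directions, 8 of 19 up (42.1%) and 7 down (36.8%), against 29.2% and 29.3% of all genes tested. Igf1, a survival factor for oligodendrocytes that microglia make in lesions, was at 5.46, 14.2 and 7.35 CPM in the naïve pools and 237, 196 and 201 CPM in the injured pools (log2 fold change 4.56 ± 0.40, adjusted p = 2.91e-07). Hgf (3.54, 4.17 without naïve replicate 3), Inhba, an activin subunit (2.90), Hbegf (1.87) and Fgf2 (1.77) rose as well. Fgf1 was at 736, 614 and 719 CPM in the naïve pools and 126, 157 and 192 CPM in the injured pools (log2 fold change -2.12 ± 0.15, adjusted p = 2.4e-08), and Fgf9 (-3.20), Bmp6 (-3.02), Nrg1 (-1.83) and Tgfb2 (-1.54) fell with it. Bmp4, an inhibitor of oligodendrocyte maturation, was low and uneven, at 0.479, 8.18 and 0.320 CPM in the naïve pools and 0.663, 1.20 and 0.517 CPM in the injured pools. It was not called, and its direction turned on naïve replicate 2 (log2 fold change -1.86 ± 0.89, adjusted p = 0.0867 with it, and log2 fold change 1.0 without it).

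The injury effect at 8 months was then set against that at 6 weeks, in a test of the difference between the 2 effects. 22 genes, 0.139% of those tested, passed it, 13 (0.0819%) with a more negative and 9 (0.0567%) with a more positive log2 fold change at 8 months. This count moved from 3 (without 6-week injured replicate 2) to 56 (without 8-month naïve replicate 2) when 1 pool was left out, and was 238 with DESeq2. The others were not shown to be alike at the 2 ages. The 5 lowest differences were in Igf2 (-2.91), Postn (-2.44), Fmod (-2.37), Lyz2 (-1.89) and Bcan (-1.83), and the 5 highest in Tm7sf2 (1.63), Tmem163 (1.63), Nkiras2 (1.67), Uhrf1 (2.33) and Cdca7l (3.24), as the 8-month minus the 6-week log2 fold change. Over the 20 settings tried, the test was passed by Lyz2 in 20, Tmem163 in 19, Fmod and Cdca7l in 16 each, Tm7sf2 in 15, Bcan in 13, Igf2, Nkiras2 and Uhrf1 in 12 each and Postn in 8. Lyz2 was at 107, 79.8 and 100.2 CPM in the naïve pools and 7675, 7264 and 7115 CPM in the injured pools. At 6 weeks it was at 17.6, 23.4 and 23.6 CPM in the naïve pools and 5623, 7115 and 5589 CPM in the injured pools. Every 8-month naïve pool was above every 6-week naïve pool, whereas the injured pools of the 2 ages met at their edges. The log2 fold change was 6.26 at 8 months and 8.15 at 6 weeks (difference -1.89 ± 0.21 (SE), adjusted p = 0.00275). Uhrf1, which maintains DNA methylation in dividing cells, was at 0.383, 0.839 and 0.559 CPM in the naïve pools and 42.5, 60.5 and 42.8 CPM in the injured pools, and at 6 weeks at 2.91, 3.08 and 2.79 CPM in the naïve pools and 54.2, 39.5 and 49 CPM in the injured pools. Here the 8-month naïve pools were the lower ones and the injured pools overlapped (difference 2.33 ± 0.37, adjusted p = 0.0264). Cdca7l, with the largest difference, was at 0.195 ± 0.117 CPM in 8-month and 1.82 ± 0.564 CPM in 6-week naïve pools. Its injured pools were at 24.7 ± 3.19 and 24.2 ± 2.15 CPM (SD, n = 3). The 8-month naïve mean lies below the level of 3 counts in a pool, so the size of its difference rests on very few reads. Over the 22 genes, the means of the 2 ages were within 2-fold in the injured pools for 18 and in the naïve pools for 8, a description with no test of the ages in either state. Bcan, brevican, differed in the injured pools instead, at 5.12 ± 0.514 CPM at 8 months and 20.1 ± 4.54 CPM at 6 weeks, with naïve levels of 60.3 ± 15.4 and 66.5 ± 3.28 CPM (SD, n = 3). In the cholesterol pathway, Tm7sf2, a sterol reductase, fell less at 8 months (-0.84 against -2.47), from naïve levels of 12.1 CPM at 8 months and 55.8 CPM at 6 weeks.

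**Figure D5:**
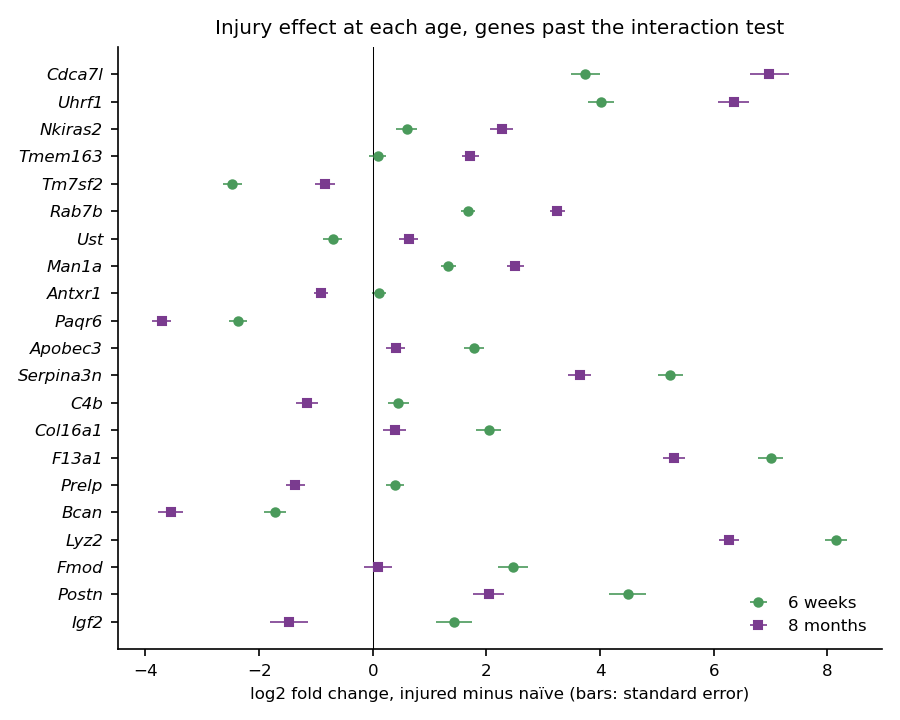
Log2 fold change (injured minus naïve) at 6 weeks (green circles) and 8 months (purple squares) for 21 of the 22 genes past the test of the difference, with bars of 1 standard error, ordered by that difference. Igf2 lies below 0 at 8 months and above 0 at 6 weeks. Cdca7l and Uhrf1 have the larger log2 fold change at 8 months, from lower naïve levels at that age.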

How the data were processed

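The labels describe 12 pools of spinal cord white matter in 4 groups of 3, and the sample titles gave group and replicate number. Ages and pool size came from the study's methods. The authors deposited raw read counts per gene from total RNA that had been amplified during library building. Per the labels, reads were checked with FastQC 0.11.4, mapped to GRCm38 with TopHat2 2.0.10 and Bowtie 1.1.2, and counted with featureCounts, and neither a strand setting nor an annotation release is given in the sources used here. Without strand, reads of overlapping antisense genes cannot be told apart, and near-identical paralogs may share or lose reads. Amplification before sequencing can add spread that counts do not show.

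The counts were analysed as deposited in R 4.3.3 with edgeR 4.0.16 (filterByExpr by group, TMM factors, 1 coefficient per group over all 12 pools, quasi-likelihood F test) with Benjamini-Hochberg adjustment over the 15866 genes that passed the filter. The threshold was an adjusted p of 0.05. Standard errors, printed after ± beside log2 fold changes, are the fold change divided by the root of the F statistic, and ± beside CPM is the SD of 3 pools. The age difference was tested as an interaction contrast. Scripts were tested on simulated counts. Symbols were found for 45143 of 46078 gene IDs, and promoter windows came from RefSeq (GRCm38.p6). The gene lists (47, holding 661 genes) and the comparison were chosen with earlier results of these data known. Genes were named as the 12 highest and 12 lowest fold changes among called genes with a mean log2 CPM of at least 3 and no overlap between groups, the 8 largest gains and 8 largest losses in mean CPM, members of the lists, and the 5 highest and 5 lowest age differences. Some genes that these rules name are not reported here. Alternatives were other scalings, filters, DESeq2 1.42.0, the 6 pools alone, a replicate block and each pool left out.

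Pools of a group differed beyond counting noise (chi-square per degree of freedom of at least 11.1 for every pair), and none was counted as a repeat of another, which does not show that they came from separate mice. Deviations of same-numbered naïve and injured pools correlated at 0.00492, 0.153 and 0.00774 over genes, so the numbers were not taken to pair the pools.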

Additional observations from a re-analysis of the deposited data

Results flagged for a closer look

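In a test of the difference itself, the injury effect differed between 8 months and 6 weeks for 22 genes. The difference is given as the 8-month minus the 6-week log2 fold change. It was negative for Igf2 (-2.91), a fetal growth factor also made by meninges, the matrix genes Postn (-2.44), Fmod (-2.37), Bcan (-1.83), Prelp (-1.75) and Col16a1 (-1.65), the macrophage genes Lyz2 (-1.89) and F13a1 (-1.70), the complement gene C4b (-1.61), the reactive astrocyte gene Serpina3n (-1.60), and Apobec3 (-1.38), Paqr6 (-1.34) and Antxr1 (-1.02). Those with a positive difference included the sterol enzyme Tm7sf2 (1.63), the division-linked genes Uhrf1 (2.33) and Cdca7l (3.24), the endosomal GTPase Rab7b (1.58), the mannosidase Man1a (1.18), the sulfotransferase Ust (1.33), Tmem163 (1.63) and Nkiras2 (1.67).

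Of the 22, Lyz2, Prelp and Rab7b passed the test under all 20 settings tried, a group picked out after their values were seen. Prelp, a collagen-binding proteoglycan, fell at 8 months (log2 fold change -1.36 ± 0.17, adjusted p = 6.92e-06) and had a log2 fold change of 0.39 at 6 weeks, which was not called. Rab7b rose at both ages, by 3.24 at 8 months and 1.67 at 6 weeks on the log2 scale. The remaining 19 each missed the threshold under at least 1 setting and kept their sign under all of them.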

How the results depend on the processing

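The number of genes called at 8 months lay between 7975 (only the 6 pools in the fit) and 9645 over the alternatives, 8270 to 9645 with 1 pool left out. Calls of at least 2-fold numbered 6051, and 3845 when the test itself was set against a 2-fold change. The count of age differences was the least stable, at 22 in the report, 238 with DESeq2, 329 with no filter and 3 to 56 with 1 pool left out. The lowest of these came without 6-week injured replicate 2 and the highest without 8-month naïve replicate 2, and the cause was not tested. Replicate numbers did not pair the pools, and with the replicate number as a block 9153 genes were called at 8 months and 31 differed between the ages. Scaling by library totals alone moved the median log2 fold change of all genes by 0.109, and other scalings by less than 0.1.

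Of 258 genes named with an injury value, 238 kept their direction and their side of the threshold under every alternative, 14 changed their call only and 6 changed sign. Those that changed sign were not called in the report. Ifit3 was at 0.0049 with DESeq2, 0.0072 with DESeq2 size factors in edgeR, 0.094 with library totals, 0.015 with no filter, 0.10 with the replicate block and -0.38 to 1.0 without 1 pool. Tmem119 was at 0.11 with library totals, 0.14 with the block and -0.38 to 0.87 without 1 pool. Csf1 was at -0.020 with upper quartile factors and -0.023 to 0.093 without 1 pool. Leaving out 1 pool also turned Bmp4 (-2.41 to 1.0, naïve replicate 2), Cmpk2 (-0.41 to 0.047, naïve replicate 1) and Fmod (-0.032 to 0.29, injured replicate 1). The block made calls of H2-DMa (1.13) and Rsad2 (0.99), lost those of Smpd3 (0.54) and Apobec3 (0.41) and changed no other named call. At these depths, a gene under 3 counts in a pool was below 0.290 CPM, and nothing can be said of changes below that.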

Other observations

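Genes of energy metabolism moved in different directions. Of 21 glycolysis and lactate transport genes, 10 rose (47.6%) and 5 fell (23.8%), against 29.2% and 29.3% of all genes tested. The pairs of isoenzymes split. Ldha, the lactate dehydrogenase subunit of glycolytic cells, was at 76.7, 125 and 85.1 CPM in the naïve pools and 655, 768 and 535 CPM in the injured pools (log2 fold change 2.77 ± 0.18, adjusted p = 1.38e-08), while Ldhb fell by 1.62 on the log2 scale. The hexokinases Hk2 (3.17) and Hk3 (5.13, 5.89 without naïve replicate 2) rose and Hk1 fell (-0.70), and Aldoc, the aldolase of astrocytes, fell by 3.18. Nuclear genes of the respiratory chain were lower in 19 of 26 cases, 4 of them at least 2-fold, with a median log2 fold change of -0.55, and none was higher. Cox4i1 changed most (log2 fold change -1.67 ± 0.24, adjusted p = 3.74e-05). Of 11 protein genes of the mitochondrial genome, 2 were lower, mt-Co1 (-0.53) and mt-Nd1 (-0.45), and both calls were lost without any 1 of 4 pools (log2 fold changes -0.54 to -0.39 and -0.45 to -0.28). Among those not called, mt-Co2, mt-Co3 and mt-Atp6 had at most 16 counts in any 8-month pool, too few to show changes of this size.

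Genes of oxidant defence moved in both directions. Hmox1, heme oxygenase 1, was at 2.97, 1.15 and 3.04 CPM in the naïve pools and 89.7, 126 and 116 CPM in the injured pools (log2 fold change 5.50 ± 0.53, adjusted p = 7.26e-07), whereas Nqo1, another target of the factor Nrf2, was at 56.5, 63 and 56.7 CPM in the naïve pools and 10.3, 7.90 and 15.8 CPM in the injured pools (log2 fold change -2.38 ± 0.23, adjusted p = 6.95e-07). The groups did not overlap for either. Over the list, 6 of 18 rose (33.3%) and 7 fell (38.9%), against 29.2% and 29.3% of all genes tested. Gpx1 (1.68) was up and Gpx4 (-1.17), Cat (-1.05) and Sod1 (-1.02) were down. Of 15 iron and heme genes, 7 rose and 1 fell. For ferritin, the light chain gene Ftl1 was at 164, 235 and 192 CPM in the naïve pools and 1626, 2220.0 and 1448 CPM in the injured pools (log2 fold change 3.16 ± 0.18, adjusted p = 3.1e-09) and the heavy chain gene Fth1 at 12184, 13461 and 9734 CPM in the naïve pools and 4278, 4125 and 5272 CPM in the injured pools (log2 fold change -1.37 ± 0.14, adjusted p = 1.49e-06). Both genes have processed pseudogenes, so the assignment of their reads is uncertain. The iron transporter of phagosomes, Slc11a1, rose (4.29).

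Stress genes were mixed. Atf3, induced by injury in many cells, rose by 5.30 and the chaperone Hspa5 by 1.83 on the log2 scale. Of 15 genes of the integrated stress and unfolded protein responses, 6 rose (40%) and 3 fell (20%), against 29.2% and 29.3% of all genes tested. The serine synthesis genes Phgdh (-1.37) and Psat1 (-0.84) were among those that fell. Of 14 immediate early genes, 10 rose, led by Egr2 (4.62, 5.56 without naïve replicate 3), Junb (3.75) and Fosl2 (3.55), and Jund fell (-0.86). Markers of Schwann cells, 7 of 8 tested, had 1 higher (14.3%) and 2 lower (28.6%), the latter Drp2 (-1.37) and Cdh19 (-0.97). Of ependymal markers 2 of 7 could be tested, and Foxj1 fell (-1.24). Of B cell markers 2 of 6 were tested, Cd79b higher (2.77, with 2, 0 and 7 counts in the naïve pools) and Ighm lower (-1.51).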
